A study of Caenorhabditis elegans with 4 samples.

Results

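MIX-1 was mapped by chromatin immunoprecipitation followed by sequencing (ChIP-seq), and the 253 peaks on chromosome II are described here. They are every region of the authors' series-wide peak list that lies on chromosome II, 253 of 2705 in all and 9.39% of the 2695 nuclear peaks. The source was N2, the wild-type laboratory strain of Caenorhabditis elegans, as mixed embryos of both sexes from cultures of gravid adults. The samples were 2 ChIP libraries and 2 input libraries, whose files were not used here; the antibody to MIX-1 was SDQ3892, a polyclonal one raised in rabbit and purified by affinity. All groups shared strain, genotype and stage, so the comparisons are between chromosomes and not between treatments. The labels number the replicates without saying whether they came from separate cultures, and the spread between them may be technical.

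MIX-1 is an SMC2-type ATPase, a core subunit of condensins, the ring-shaped complexes that fold and compact chromosomes. In C. elegans it is shared between the condensins of mitosis and meiosis, which act on every chromosome, and the dosage compensation condensin, which acts on the X chromosomes of hermaphrodites. A MIX-1 peak on an autosome is therefore not assigned to one of these complexes by the ChIP alone. Embryos of mixed stage hold many cell types and cell cycle phases, and a peak is an average over them.

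Each peak has a first base, a last base and a score from the authors' peak caller. Positions are in the WS220 build, per the file headers, and are 1-based. The scale of the scores is not stated, and the scores were used only to rank and describe peaks within a list. Beside the series-wide list there is 1 list for each ChIP library, with 233 regions on chromosome II in replicate 1 and 72 in replicate 2. No read counts were used, and library depth is unknown. The intervals and tests below cover counting error only and take peaks as independent, which neighbouring peaks are not. A test with chromosomes as units, 1 against 4, could not give an exact p below 0.2.

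In the full series-wide list, peaks were sparser on chromosome II than on the other autosomes. Chromosome II carried 16.7 peaks per Mb of span (exact Poisson 95% interval 14.7 to 18.9), against 20.3 on chromosomes I, III, IV and V together. The ratio was 0.821 (exact 95% interval 0.715 to 0.940; two-sided exact binomial p = 0.00351). The span, 15.2 Mb, ended at the last base of any region in the 3 lists. The same ratio was 0.849 (0.735 to 0.977, exact p = 0.0212) among replicate 1 regions and 0.936 (0.716 to 1.21, exact p = 0.657) among replicate 2 regions, so the deficit did not pass the threshold in the shorter list. It also rested on chromosome III, which holds the densest cluster of the autosomes: without chromosome III the ratio was 0.887 (exact binomial p = 0.0895).

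Against single chromosomes, the density on II was below that of chromosome I (ratio 0.785), chromosome III (0.638) and X (0.275), with exact binomial p-values adjusted over the 5 pairs of 0.00743, 1.06e-07 and 2.21e-94. It did not differ detectably from chromosome IV (ratio 0.923, interval 0.779 to 1.09, adjusted exact p = 0.444) or chromosome V (0.943, 0.800 to 1.11, adjusted p = 0.490). Those intervals leave room for a deficit of the size seen against the other autosomes together. In replicate 1 the pairs past the threshold were III, IV and X, and in replicate 2 only X. Per 1000 protein-coding genes, chromosome II had 73.4 peaks, next to 74.1 on V, 96.3 on IV, 111.2 on I, 136.3 on III and 394.1 on X. The peaks covered 88.3 kb, or 0.582% of the span of chromosome II, against 0.789% on the other autosomes.

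**Figure D1:**
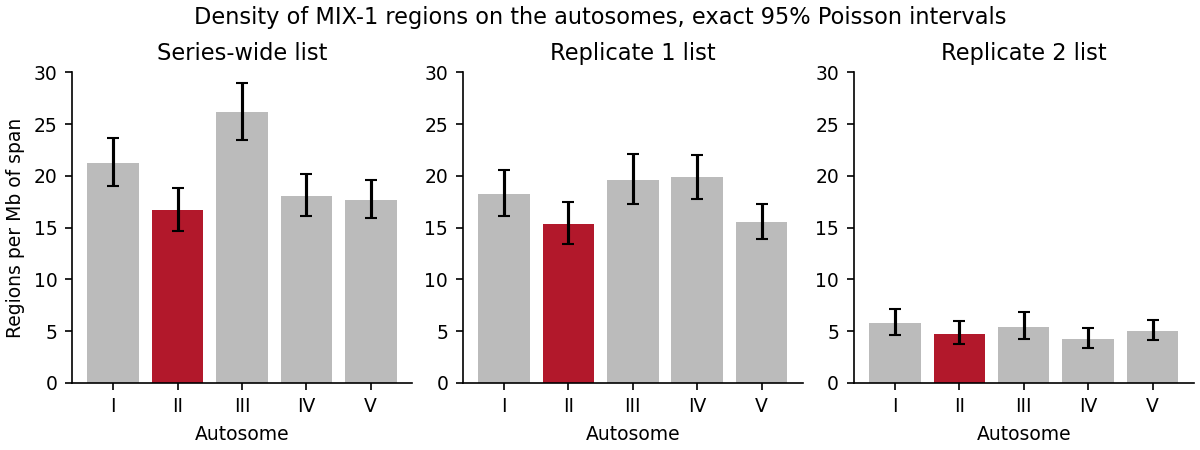
MIX-1 regions per Mb of span (y axis) on each autosome (x axis) in the series-wide list and in the list of each replicate, with exact Poisson 95% intervals as error bars. Chromosome II stands at 16.7, 15.4 and 4.75 regions per Mb in the series-wide, replicate 1 and replicate 2 lists, below chromosomes I and III in each list.

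Along chromosome II the peaks were uneven. Over the 15 full 1-Mb bins, the series-wide count ranged from 7 to 28 with a median of 15, and the ratio of variance to mean was 2.72, against 2.44 to 7.42 on the other autosomes. The sparsest bins were those from 1 to 2 Mb and from 2 to 3 Mb, with 7 peaks each, and the fullest was that from 14 to 15 Mb, with 28. The bin from 14 to 15 Mb was also the fullest in replicate 1, with 24 regions. In replicate 2 the fullest was the bin from 13 to 14 Mb, with 12 regions, of which 6 belong to the single array described below.

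The left, central and right parts of the chromosome, each 33.3% of its span, held 64, 89 and 100 peaks. The left part thus held 25.3% (exact 95% interval 20.1 to 31.1) of the peaks, against 29.9% on the other autosomes, and the right part 39.5% (33.5 to 45.8) against 33.4%. The central share was 35.2%, a difference of -1.57 percentage points from the other autosomes (Newcombe 95% interval -7.76 to 5.00; two-sided Fisher's exact p = 0.670, adjusted over 5 shares 0.8375). The sign of that difference depended on the peaks taken: it was 13.3 points among peaks met in both replicate lists (45.9% against 32.6%, two-sided Fisher's exact p = 0.0552), 5.17 in replicate 2, 5.12 in the higher-scoring 50% of peaks and -3.85 in replicate 1, and none passed the threshold. Replicate 1 gave 72, 68 and 93 regions in the same parts and replicate 2 gave 16, 28 and 28. The right part was never the lowest in any of the 3 lists, while the order of the left and central parts depended on the list.

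Support by the replicates was like that of the other autosomes. Of the 253 peaks, 61 (24.1%, interval 19.0 to 29.9) overlapped a region in both replicate lists by at least 1 bp, against 21.1% on the other autosomes and 22.3% of all nuclear peaks. The difference from the other autosomes was 3.03 points (Newcombe 95% interval -2.32 to 9.03; two-sided Fisher's exact p = 0.280, adjusted 0.701). A further 96 peaks (37.9%) were met only in replicate 1 and 12 (4.74%) only in replicate 2. The remaining 84 (33.2%) were met in neither, next to 32.9% on the other autosomes (difference 0.259 points, -5.81 to 6.75, adjusted Fisher's exact p = 0.942). The sources used here do not say how the series-wide list was made from the libraries.

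The peaks met in both lists were the higher and wider ones. Their median score was 16.7 and their median width 473 bp, against 5.81 and 236.5 bp for those met only in replicate 1, 10.6 and 295.5 bp for those met only in replicate 2, and 5.73 and 201 bp for those met in neither. In the highest 25% of nuclear scores, 37 of 64 chromosome II peaks (57.8%) were met in both lists and 3 in neither. In the lowest 25%, 4 of 71 were met in both and 30 in neither. Replicate 1 regions met by the peaks were the wider at 114 of 157 peaks, with a median width of 1.25 times that of the series-wide peak.

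**Figure D2:**
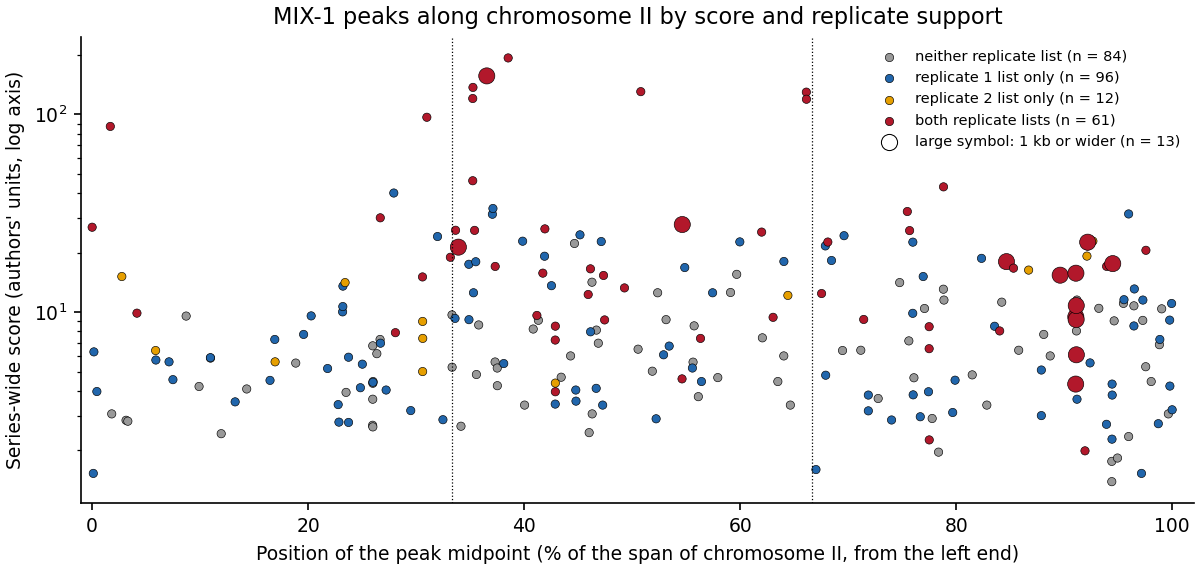
Series-wide score (y axis, log scale, authors' units) of the 253 peaks against the position of the midpoint (x axis, % of the span of chromosome II from the left end), coloured by the replicate lists in which the peak was met, with dotted lines between the 3 parts. Of the 12 highest peaks 8 lie in the central part. Of the 13 peaks of 1 kb or wider (large symbols), 10 lie in the right part, 6 of them in 1 array.

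Support differed along the chromosome. In the left part 8 of 64 peaks (12.5%, interval 5.55 to 23.1) were met in both lists, in the central part 28 of 89 (31.5%, 22.0 to 42.2) and in the right part 25 of 100 (25%, 16.9 to 34.7). On the other autosomes the left part ranged from 22.2% to 31.4% and the central part from 13.8% to 23.1%, so the left part of chromosome II lay below, and the central part above, the same part of each of the other 4. Parts of another name came close to both values. On IV the left part had 31.4% and the right part 13.1%, and the right part of III had 13.2%. A contrast of similar size thus lay within another autosome. These parts were compared after their values were seen, and no test was made. Median scores in the left, central and right parts were 5.67, 9.17 and 8.25.

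Counted from the replicate lists, the share of regions with an overlap was also lowest on the left. These are largely the same overlaps and not separate evidence. In replicate 2, 13 of 16 left regions (81.25%), 27 of 28 central and 28 of 28 right regions met a series-wide peak. Of the replicate 1 regions on chromosome II, 38 of 72 (52.8%) met a series-wide peak in the left part, 55 of 68 (80.9%) in the central part and 64 of 93 (68.8%) in the right part. Replicate 2 had no region from II 891922 to 2570526, a stretch of 1.68 Mb and the widest gap of that list on the chromosome. Within it lay 12 series-wide peaks, 7 of them met in replicate 1 and 5 in neither list, with scores of 2.43 to 9.56. The same stretch held 20 replicate 1 regions, of which 13 met no series-wide peak. It includes the widest gap of the series-wide list, 326.5 kb from II 2171768 to 2498283, where replicate 1 had 2 regions and replicate 2 none. Long gaps were usual: on I, III, IV and V the widest of replicate 2 were 1352, 1245, 941 and 1230 kb. In the series-wide list the widest gaps of those chromosomes were 355 to 554.3 kb, longer than on chromosome II.

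**Figure D3:**
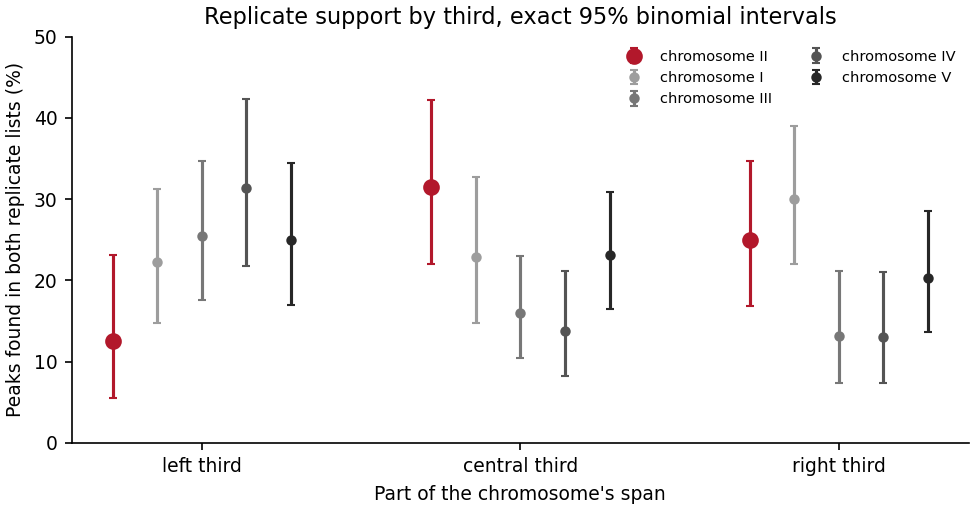
Percentage of series-wide peaks met in both replicate lists (y axis) in the left, central and right parts of each autosome (x axis), with exact 95% intervals as error bars. On chromosome II the values are 12.5%, 31.5% and 25%, the left part being the lowest of the chromosome.

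Scores and widths on chromosome II were close to those of the other autosomes. The median score was 7.42 (quartiles 4.33 and 14.2, range 1.39 to 193.2) against 6.85, and the median width 243 bp (quartiles 191 and 351, range 146 to 4373) against 247.5 bp. Both medians were below those of X, 7.73 and 283 bp. Score and width rose together across the 253 peaks (Spearman's rho 0.515, a description across peaks of the same libraries). Of the peaks, 19 (7.51%) lay in the highest-scoring 10% of the nuclear list, against 9.59% on the other autosomes and 10.1% over all nuclear peaks. At the highest 5% the shares were nearly equal, a difference of -0.0153 points, and at the highest 20% chromosome II was above by 1.42 points. Chromosome II thus showed no uniform shift in score, but it held the highest peak of the whole nuclear list.

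That peak, II 5844409 to 5845362, was 954 bp wide and had a score of 193.2. It stood at 3100 in both replicate lists, the highest replicate score on the chromosome, which 3 regions of replicate 1 and 2 of replicate 2 shared. The value 3100 recurs on other chromosomes: in replicate 1 it was given to 21 regions on I, III, IV and V together and to 21 on X. Regions at 3100 are tied and cannot be ranked against each other. The second peak, II 5543254 to 5544422, was 1169 bp wide with a score of 156.7, and also stood at 3100 in both lists. In replicate 1 it was split into 2 regions.

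The next 7 peaks had scores of 87.01 or more. The third, II 5350228 to 5350656, had a score of 137.1, with 1382 in replicate 1 and 459.4 in replicate 2. The fourth, II 7708487 to 7708907, had a score of 130.5, with 1787 and 385.6. Their midpoints lie at 35.3% and 50.8% of the span. The fifth and the seventh were neighbours separated by 580 bp, at II 10033378 to 10033978 (score 129.7) and II 10034559 to 10035035 (119.4). The sixth, II 5346365 to 5346895 (120.4), lay in the same chain as the third. The eighth, II 4701279 to 4701893 (96.8), and the ninth, II 255161 to 255488 (87.01), were the highest in the left part.

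A drop in score followed. The peaks ranked 10 to 12 had scores of 46.23, 43.05 and 40.07, at II 5347131 to 5347525, II 11960594 to 11960961 and II 4237841 to 4238196. The last of these was met only in replicate 1, at a score of 343.9, and was the single peak of the 12 not met in both lists. Of the 12 highest peaks, 8 lay in the central part, 3 in the left and 1 in the right. The stretch from 4 to 6 Mb held 7 of the 12 and 40 of all 253. Their median width was 453 bp, and 1 of them reached 1 kb.

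**Figure D4:**
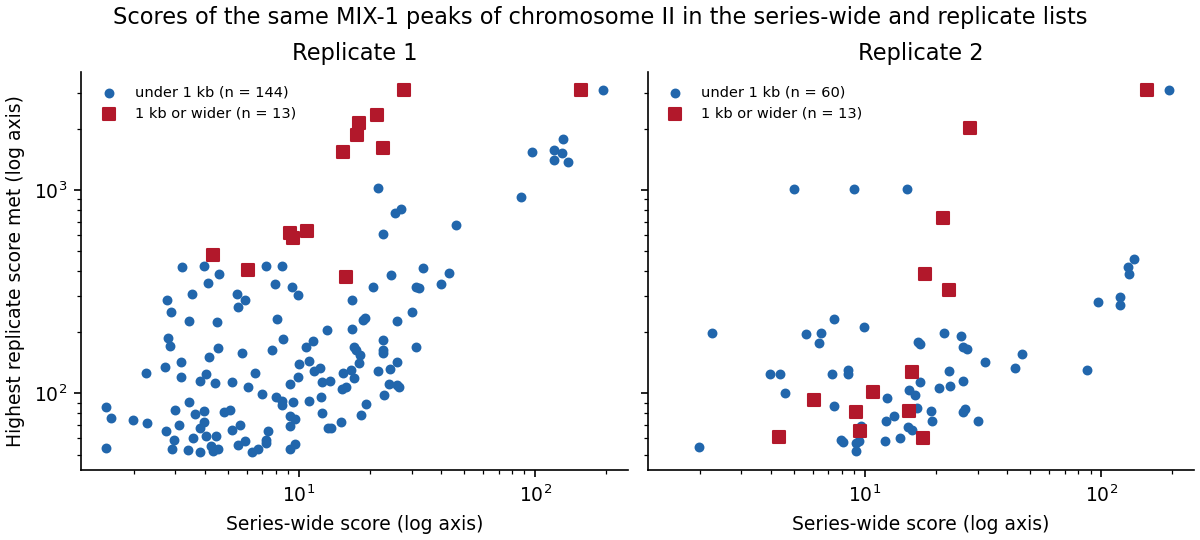
Score of the highest replicate region met by each chromosome II peak (y axis) against its series-wide score (x axis), for replicate 1 (144 peaks under 1 kb) and replicate 2 (60 such peaks); both axes are log and in the authors' units, and squares mark the 13 peaks of 1 kb or wider. The squares reach replicate 1 scores of 374.7 to 3100 at series-wide scores of 4.33 to 156.7.

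Of the 12 highest peaks, 1 was 1 kb or wider. Wide peaks were too few for this to set them apart from the high ones. The 12 highest had a median width of 453 bp, against 243 bp over the chromosome. In all, 13 peaks (5.14%, against 5.34% on the other autosomes) were 1 kb or wider. Of these, 10 lay in the right part (6 in the array described below), 3 in the central part and none in the left. Over all 253 peaks 61 (24.1%) were met in both replicate lists, and so was each of these 13, 6 of them adjacent in the array. Their series-wide scores ran from 4.33 to 156.7 with a median of 15.75, above the upper quartile of the chromosome, 14.2. Their replicate 1 scores, in that list's own units, ran from 374.7 to 3100 with a median of 1543, against an upper quartile of 227.9. Among the 12 highest replicate 1 regions of the chromosome, 8 met a wide peak and 5 met one of the 12 highest series-wide peaks. Among the 12 highest of replicate 2 those counts were 5 and 7. The counts overlap, as 1 peak that is both wide and among the 12 highest enters both. The 8 replicate 1 regions met 7 wide peaks. The series-wide list and the replicate 1 list thus ranked chromosome II differently at the top.

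The widest, II 8288336 to 8292708, spanned 4373 bp. It had a series-wide score of 27.76, the rank 18 on the chromosome, but 3100 in replicate 1 and 2023 in replicate 2, where it was the third. Next came II 12843683 to 12846059 (2377 bp, score 18.02) and II 5144553 to 5146743 (2191 bp, score 21.33), which had 2151 and 2355 in replicate 1 and 387.1 and 728.6 in replicate 2. The following peak, II 14337514 to 14339189 (1676 bp, score 17.61), had 1873 in replicate 1 but only 60.28 in replicate 2, where it ranked 64 of 72. The fifth, II 13598552 to 13599867 (1316 bp, score 15.39), showed the same contrast, with 1543 and 82.37. These last 2 wide peaks, both in the right part, thus ranked high in replicate 1 and low in replicate 2, whereas the widest peak ranked high in both.

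Across all chromosome II peaks with a value in both lists, the series-wide score rose with that of replicate 1 (Spearman's rho 0.508 over 157 peaks) and less with that of replicate 2 (0.381 over 73). The replicates correlated with each other at 0.562 over 61 peaks. The first and second of these values were 0.430 and 0.326 on the other autosomes as a group, and 0.669 and 0.647 on X. They are descriptions across peaks, since neighbouring series-wide peaks can meet the same replicate region: 9 of the 157 and 9 of the 73 did so. The 157 and the 73 are also different sets, with median series-wide scores of 9.3 and 15.75, so their coefficients do not compare like with like.

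Close neighbours were fewer on chromosome II than on the other autosomes as a group, but the difference did not pass after adjustment. Within 10 kb of another peak lay 121 of 253 (47.8%, interval 41.5 to 54.2), against 55.4% on the other autosomes, 72.5% on X and 61.5% of all nuclear peaks. The difference from the other autosomes was -7.59 points (Newcombe 95% interval -14.2 to -0.903; two-sided Fisher's exact p = 0.0279, adjusted over 5 shares 0.140). Without chromosome III it was -5.06 points. With neighbours counted within 1, 5 or 50 kb instead it was -9.18, -7.14 and -7.84 points (unadjusted Fisher's exact p = 0.00322, 0.0391 and 0.00170). These distances reuse the same peaks and are not separate evidence. Such a share moves with density, which was 16.7 peaks per Mb on II, 20.3 on the other autosomes and 60.7 on X. Whether clustering differed apart from density was not tested. The median gap between neighbouring peaks was 34.0 kb, with a minimum of 66 bp, and 11 gaps were of 200 kb or more. Peaks with no neighbour within 10 kb were met in neither replicate list in 40.2% of cases, and peaks with one in 25.6%, while the shares met in both were 22.7% and 25.6%.

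Joining peaks separated by at most 10 kb left 132 single peaks, 32 pairs and 13 chains of 3 or more, of which 7 held at least 4 peaks. The longest chain had 9 peaks, as on chromosome IV, against 12 on V, 14 on I and on X, and 49 on III. It ran over 18.5 kb from II 13817657 to 13836111, and its first 6 peaks made a regular array.

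Those 6 peaks, from II 13817657 to 13827645, were 1039 to 1162 bp wide. The distance from one start to the next was 1824, 1588, 1841, 1742 and 1951 bp, a mean of 1789 bp ± 135 (SD, n = 5 steps). Each peak met its own region in each replicate list. The steps averaged 1818 bp ± 101 in replicate 1 and 1775 bp ± 115 in replicate 2, so the mean step differed between the 3 lists by less than its SD. Series-wide scores were 4.33, 9.48, 15.75, 9.18, 10.8 and 6.09 from left to right, ranks 190, 100, 57, 104, 87 and 148 of 253. Replicate 1 scores ran from 374.7 to 632.2 (ranks 21 to 35 of 233) and those of replicate 2 from 61.3 to 128.0. In replicate 2 the ranks were 62, 61, 32, 51, 39 and 43 of 72, and the lowest score of that list on the chromosome was 52.34. The array held 6 of the 13 wide peaks of the chromosome. The other 3 peaks of the chain were 191 to 267 bp wide, and none was met in replicate 2. The sequence under the array was not analysed here, because no genome of this build was used.

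**Figure D5:**
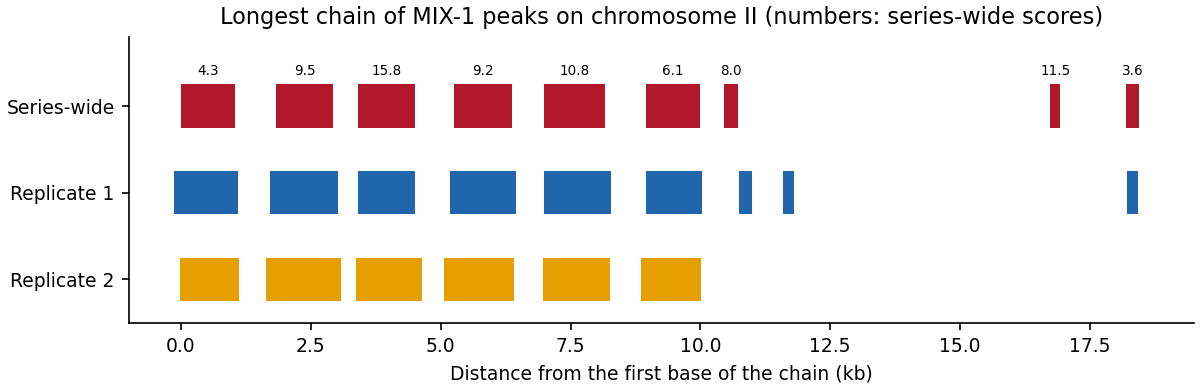
The longest chain of chromosome II, drawn to scale as distance from its first base (x axis, kb) for the series-wide list and both replicate lists (rows), with the series-wide score above each peak. The first 6 series-wide peaks, of 1039 to 1162 bp, each stand over 1 region in each replicate, and the 3 narrow peaks to their right have no region in replicate 2.

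The other chains differed in support. The chain of 7 peaks from II 3940995 to 3946415, in the left part, had scores of 2.63 to 6.76, and 6 of its 7 peaks were met in neither replicate list. The chain of 4 from II 5346365 to 5358513 held 3 of the 12 highest peaks, all 3 met in both lists. In the chain of 6 from II 14324422 to 14339189, 5 narrow peaks with scores of 1.39 to 4.33 preceded the wide peak of 1676 bp.

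In the remaining 3, single replicate regions met several series-wide peaks. From II 6505662 to 6508346, 5 peaks of 155 to 502 bp stood over 1 replicate 2 region of 2472 bp that met 4 of them, and over a replicate 1 region of 1864 bp that met 3. From II 4641192 to 4644807, 4 peaks stood over a replicate 2 region of 2603 bp that met 3 of them and had a score of 1010, the fourth of that list on the chromosome. Replicate 1 met only the first of these 4, with 2 regions, the higher of them 405 bp wide at a score of 72.28. From II 11749764 to 11760278, 3 of 4 peaks were met in both lists, and 2 of these shared their region in each.

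Each list had entries without a counterpart. The highest peaks met in neither replicate list were II 6776430 to 6776652 (score 22.26), II 9054598 to 9054870 (15.54) and II 7022628 to 7022854 (14.18). All were in the central part and 223 to 273 bp wide. By score they ranked 35, 58 and 64 of 253 on the chromosome, below the highest-scoring 10% of nuclear peaks. In the other direction, 157 of 233 replicate 1 regions on chromosome II (67.4%, against 67.2% on the other autosomes and 84.2% on X) and 68 of 72 replicate 2 regions (94.4%, against 91.5%) met a series-wide peak. The highest replicate 1 regions without one were II 1977704 to 1979309, 1606 bp wide with a score of 524.5, II 3994604 to 3994851 (350.2) and II 3290595 to 3290871 (319). All 3 lie in the left part.

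The latter 2 positions were also called in replicate 2, as II 3994607 to 3994905 (138.3) and II 3290590 to 3290872 (66.06). Both libraries thus had a region there while the series-wide list had none. Of the 4 replicate 2 regions without a series-wide peak, 3 met a replicate 1 region and 3 lay in the left part. The exception on both counts was II 8460085 to 8460364 (78.14).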

How the data were processed

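ChIP-seq of MIX-1 was done in 2 ChIP and 2 input libraries of N2 mixed embryos. The submitters' processing notes name BWA and ce10, and coordinates are WS220, per the file headers. The deposited lists name MACS for each ChIP library and MACS v2 for the series-wide list, in their source column. The sources used here give no caller parameters, no control for each library and no way in which libraries were combined. The deposited values are the authors' peak scores, whose scale is not stated and whose floor differs between lists, and they were compared within a list; across lists they were only set side by side, each in its own units, or correlated by rank.

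Peaks of chromosome II were taken by the chromosome column. Densities were compared by a two-sided exact conditional binomial test, shares by two-sided Fisher's exact test with Benjamini-Hochberg adjustment over the 5 pairs or 5 shares, and intervals are exact 95% (Clopper-Pearson or Poisson) or Newcombe for differences. Scripts used Python 3.11.15, NumPy 2.4.6, SciPy 1.17.1, pandas 2.3.3 and matplotlib 3.10.9 and were tested on simulated data. Overlap between lists required 1 bp. From a RefSeq gene table of the assembly WBcel235 only gene numbers per chromosome were taken.

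Peaks named are the 12 highest, the 5 widest, chains of at least 4 with gaps of at most 10 kb, the 3 highest met in neither list, the 3 highest replicate regions without a series-wide peak and the widest gap. The regular array, the gap of replicate 2, the shares by part of the chromosome and the counts among the highest replicate regions were singled out after their values were seen. Members and lists were chosen with earlier results of these data known. Alternatives for density, neighbours, central share, replicate support, width and score were each replicate list alone, the higher-scoring 50%, peaks in both lists, other gaps, overlaps, score thresholds and central parts, merging of neighbours, gene number in place of span, and, chosen after seeing the data, leaving out chromosome III. Input files were not used, and mitochondrial peaks were set apart.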

Additional observations from a re-analysis of the deposited data

How the results depend on the processing

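Of 44 alternatives over 8 results, 15 kept direction and side of the unadjusted 0.05 threshold or, for values without a test, stayed within a margin. For the number of chromosomes, a fall from 3 to 2 counted as within it. For medians and the highest-scoring share, it was the SD between the single-replicate values, with no change of sign. For scores that margin was wide, as each list has its own units. Another 10 lost the threshold, and 6 reversed a difference that passed the test in neither setting. The other 13 moved, 6 of these with a change of sign. Causes were not tested. The density ratio of 0.821 became 0.849 to 0.936 in a single replicate list. It was 0.910 in the higher-scoring 50% of peaks, 0.939 in peaks met in both lists, 0.890 and 0.915 after merging within 1 and 10 kb, and 0.887 without chromosome III, and 0.741 by gene number. The number of chromosomes with a different density, 3 of 5, was 1 to 3 in a single replicate list, 1 in the higher-scoring 50% and 2 after merging within 1 kb. The difference in the share met in both lists, 3.03 points, was -0.0804 after merging within 1 kb, and -1.20 to 3.96 for a single replicate list. The difference in central share, -1.57 points, was 13.3 among peaks met in both lists, 5.12 in the higher-scoring 50%, 1.79 after merging within 1 kb and -3.85 to 5.17 in a single replicate list. The difference in the share within 10 kb, -7.59 points, was -9.18, -7.14 and -7.84 within 1, 5 and 50 kb, -4.54 to -4.05 points in a single replicate list, -2.46 in the higher-scoring 50% and -5.06 without chromosome III. The difference in median width, -4.5 bp, was 22.5 to 33 bp in a single replicate list, -28 in the higher-scoring 50%, 38 in peaks met in both lists and -12 after merging within 1 kb. The difference in median score, 0.57, was, in each list's own units, -10.8 to 3.82 in a single replicate list and -4.39 in peaks met in both. The difference in the share among the highest-scoring 10%, -2.08 points, was -0.0153 at 5%, 1.42 at 20% and -1.05 to -0.254 in a single replicate list. No paired analysis was possible because no file of the input libraries was used and each replicate list is 1 sample. The depth of the 2 ChIP libraries is unknown, so whether regions missing from the shorter replicate 2 list were undetected or absent cannot be told apart.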

Other observations

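The outermost peaks of chromosome II had unlike support. The first peak began at base 1, from II 1 to 257, with a score of 26.90, and was met in both lists at 803.8 and 166.3. It ranked 19 on the chromosome, with its nearest neighbour 16.2 kb away. The last 4 peaks, from II 15137661 to 15172957, had scores of 3.21 to 11.07 and were met only in replicate 1. The last of them, II 15172151 to 15172957, was 807 bp wide and had a replicate 1 score of 419.8 at a series-wide score of 3.21.

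The 12 peaks met only in replicate 2 had scores of 4.38 to 22.88. Of these, 7 lay in the left part, where 64 of the 253 peaks lie, and 3 of the 7 belonged to the chain from II 4641192 to 4644807. The highest was II 14059725 to 14059966, with a score of 22.88 and 108.7 in replicate 2.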
